A study of Mus musculus with 2 samples.

Results

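A set of 9 miRNA genes known from intestine, liver and pancreas were followed in the embryonic mouse stomach: Mir192, Mir194-1, Mir194-2, Mir215, Mir802, Mir122, Mir216a, Mir216b and Mir217. They were picked by name, and each of the 9 was found once among the 1973 genes counted. The choice was made with the levels of these genes, and the difference of Mir802 between the libraries, already known. Their values are therefore given as a description and without a test. The samples were 2 biological replicates of stomach from B6NCrl mouse embryos aged 14.5 days, in a single group with no treatment or genetic change named in the labels. Per the labels each library came from the stomach of 1 embryo, yet the sex is given as mixed, so it is unclear whether embryos were pooled. The replicates were collected on different days, so replicate and day cannot be told apart. Small RNA under 30 nt was sequenced, with 5004548 gene counts in replicate 1 and 4679914 in replicate 2.

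A miRNA is cut from a hairpin precursor into short strands, named 5p and 3p after the arm they come from. The strand loaded into Argonaute finds its target mRNAs mainly by pairing of its seed, bases 2 to 8 from the 5′ end. Mir192, Mir194 and Mir215 are known from intestinal epithelium, where hepatocyte nuclear factors drive their transcription, and they have been linked to intestinal metaplasia of the adult stomach. Mir122 is the leading miRNA of hepatocytes. Mir216a, Mir216b and Mir217 are known from pancreatic acinar cells. Mir802 is known from liver, pancreas and intestine. Intestine, liver and pancreas arise from the same endoderm tube as the stomach and lie beside it in the embryo.

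The sequences below show which members share a seed and which cannot be told apart by sequence. They are mature 5p strands from RefSeq (GRCm38.p6), 5′ to 3′, with the seed in capitals. The RefSeq table matched 8 of the 9 genes, all at the same position as in GENCODE, and Mir122 was not matched.
miR-192-5p: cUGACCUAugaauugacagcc
miR-215-5p: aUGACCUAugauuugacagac
miR-194-5p: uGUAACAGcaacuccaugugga
miR-802-5p: uCAGUAACaaagauucauccuu
miR-216a-5p: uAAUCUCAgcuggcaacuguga
miR-216b-5p: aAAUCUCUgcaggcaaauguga
miR-217-5p: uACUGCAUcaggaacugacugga

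The strands miR-192-5p and miR-215-5p had the same seed, UGACCUA, and no other mature miRNA among the 1679 names of the table had it. They were identical at 18 of 21 bases, and the differences (C1A, A12U and C20A, with the base of miR-192-5p first and positions counted from the 5′ end) lay outside the seed. The strands miR-216a-5p and miR-216b-5p were identical at 18 of 22 bases, with differences U1A, A8U, U11A and C17A. The change at A8U falls within the seed, so their seeds were not the same. The seeds of miR-194-5p, miR-802-5p and miR-217-5p were each found under 1 mature name.

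The strand miR-194-5p comes from 2 genes. The precursors of Mir194-1 and Mir194-2 are printed here with their longest common stretch in capitals.
Mir194-1: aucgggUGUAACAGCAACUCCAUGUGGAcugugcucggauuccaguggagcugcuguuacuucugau
Mir194-2: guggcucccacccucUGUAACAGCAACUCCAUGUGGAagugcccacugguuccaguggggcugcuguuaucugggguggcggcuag

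That common stretch was 22 nt long and was exactly miR-194-5p, so a read of this strand alone matches both loci. The 3p strands of the 2 genes differed at 4 of 22 bases. Reads that map to several places were counted in a line of their own, 27.8% of all reads in replicate 1 and 27.4% in replicate 2, and not for a gene. The levels of Mir194-1 and Mir194-2 are therefore uncertain and leave out such reads. None of the other 7 precursors shared more than 12 nt with any of the 2202 miRNA precursors of GENCODE M21.

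Levels are counts per 1000000 gene counts (CPM), as mean ± SD of the 2 libraries. A CPM is a share of the counted miRNA, and in whole tissue fewer cells of a type and less miRNA per cell cannot be told apart. The sequenced fragments are about as long as 1 mature strand, so CPM was not divided by precursor length. The same levels per 100 nt of precursor are given where genes are compared.

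Among counted reads, Mir192, Mir194-2 and Mir215 were the highest members in both libraries, while Mir194-1, the fourth intestinal gene, lay below the hepatic Mir122. Together Mir192, Mir194-1, Mir194-2 and Mir215 were counted at 1560.4 CPM in replicate 1 and 1308.6 CPM in replicate 2, a mean of 1434 ± 178 CPM (SD, n = 2), or 0.143% of gene counts. Mir192 held 56.9% of this total in replicate 1 and 54.5% in replicate 2. Mir194-2 held 26.2% and 29.7%, Mir215 14.5% and 13.3%, and Mir194-1 2.37% and 2.51%. Mir192 came first in each library, and the order of the 4 genes was the same in both.

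Mir192 (ENSMUSG00000065523.1) lies on chromosome 19 at 6264844 to 6264932, plus strand, and Mir194-2 (ENSMUSG00000065582.1) lies 115 nt upstream of it at 6264643 to 6264728. Neither overlaps another annotated gene. Mir192 had 4447 counts in replicate 1 and 3338 in replicate 2, or 889 and 713 CPM, and ranked 115th of all genes by mean CPM. Mir194-2 had 2044 and 1818 counts, or 408 and 388 CPM. Mir192 exceeded its neighbour 2.18-fold in replicate 1 and 1.84-fold in replicate 2, and 2.10-fold and 1.77-fold per length of precursor. Reads of miR-194-5p that match both loci are in neither level.

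The second pair lies on chromosome 1, plus strand, within the antisense RNA 2010103J01Rik and opposite to an intron of Iars2, which encodes a mitochondrial isoleucyl-tRNA synthetase. Mir194-1 (ENSMUSG00000065581.1, 185313319 to 185313385) is in an intron of 2010103J01Rik, and Mir215 (ENSMUSG00000065562.1, 185313581 to 185313692) overlaps an exon of it, 195 nt downstream of Mir194-1. Mir215 had 1133 counts in replicate 1 and 814 in replicate 2, or 226 and 174 CPM. Mir194-1 had 185 and 154 counts, or 37.0 and 32.9 CPM, of which 3 and 1 counts were on the opposite strand. Mir215 exceeded Mir194-1 6.12-fold and 5.29-fold, or 3.66-fold and 3.16-fold per length. The level of Mir194-1 leaves out reads of miR-194-5p that match both Mir194 loci.

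The chromosome 19 pair was higher than the chromosome 1 pair for both of its members. Mir192 was 3.92-fold above Mir215 in replicate 1 and 4.10-fold above it in replicate 2, and 4.94-fold and 5.16-fold per length. These are the genes of the shared seed UGACCUA, and their sum was 1115 CPM in replicate 1 and 887 CPM in replicate 2. Mir194-2 was 11.0-fold above Mir194-1 in replicate 1 and 11.8-fold in replicate 2, or 8.61-fold and 9.20-fold per length, among reads that could be placed at 1 of them. The log2 ratio was 2.00 ± 0.04 (SD, n = 2) for Mir192 over Mir215 and 3.51 ± 0.07 for Mir194-2 over Mir194-1. Both log2 ratios were far larger than their spread between the libraries, which does not show errors that the libraries have in common.

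Mir122 (ENSMUSG00000065402.1) lies on chromosome 18 at 65248861 to 65248926, plus strand, within an exon of the long noncoding RNA AC157910.3. It had 284 counts in replicate 1 and 308 in replicate 2, all on its own strand. This is 56.7 CPM (95% exact Poisson interval 50.3 to 63.7) in replicate 1 and 65.8 CPM (58.7 to 73.6) in replicate 2. The intervals overlap, and they cover counting error only, since the reads carry no molecular identifiers. Mir192 was 15.7-fold above Mir122 in replicate 1 and 10.8-fold in replicate 2, or 11.6-fold and 8.04-fold per length. The whole intestinal group was 27.5-fold and 19.9-fold above it.

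The pancreatic acinar genes were low in both libraries, with a total of 6.59 CPM in replicate 1 and 5.98 CPM in replicate 2, a mean of 6.29 ± 0.43 CPM (SD, n = 2). They lie in a row on chromosome 11, plus strand. Mir217 (ENSMUSG00000065415.1, 28763728 to 28763835) had 23 counts in replicate 1 and 18 in replicate 2, or 4.60 CPM (95% exact Poisson interval 2.91 to 6.90) and 3.85 CPM (2.28 to 6.08). Mir217 was the single gene of the 3 with 10 or more counts in both libraries, the minimum used here to call a gene detected. Mir217 and Mir216a lie in introns of the long noncoding RNA Gm12082, and 6644 nt separate them.

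Mir216b (ENSMUSG00000076318.1, 28746191 to 28746276) had 7 counts in replicate 1 and 8 in replicate 2, or 1.40 and 1.71 CPM. One of the 8 was on the opposite strand, where the annotation places Mir216c across the same bases. Mir216a (ENSMUSG00000065539.1, 28757012 to 28757083) had 3 and 2 counts, or 0.599 CPM (interval 0.124 to 1.75) and 0.427 CPM (interval 0.0518 to 1.54). A count of 0 was taken to allow up to 3 counts, a fixed limit that was not computed like the intervals. This is 0.599 CPM at the depth of replicate 1 and 0.641 CPM at that of replicate 2. Mir216a thus had reads in both libraries, but no more than this limit, so its level is uncertain at this depth. The intervals of Mir216a and Mir216b overlap in each library.

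**Figure D1:**
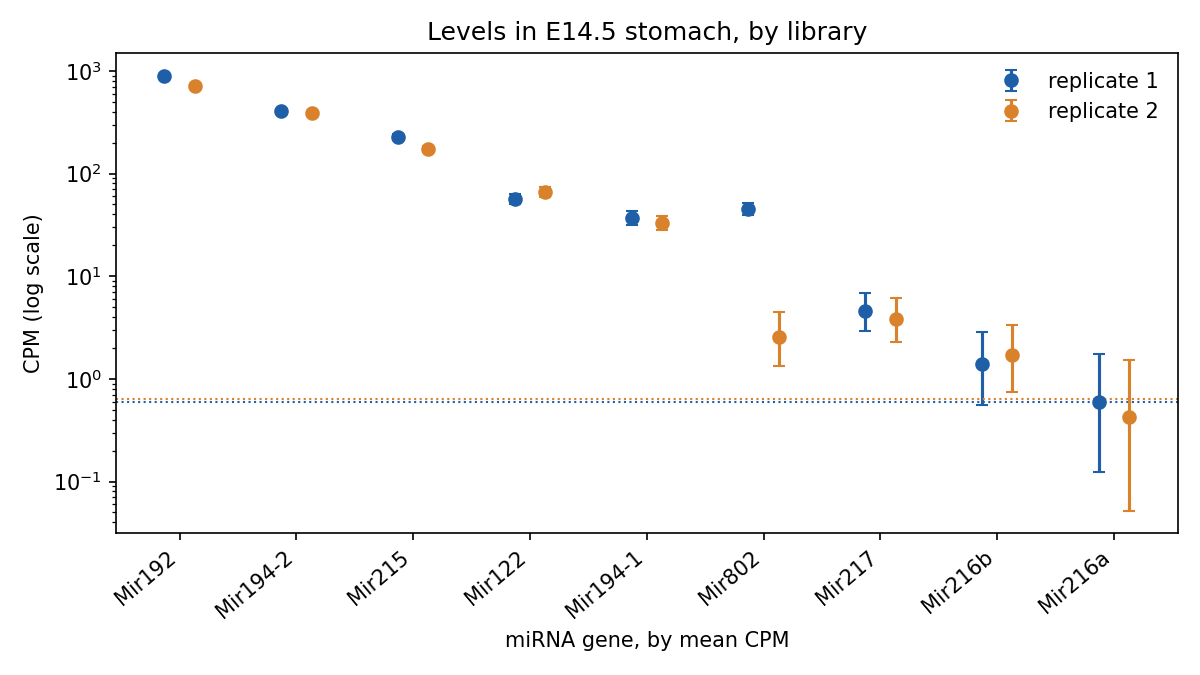
Level of each of the 9 genes in CPM (log scale) in replicate 1 (blue) and replicate 2 (orange), with 95% exact Poisson intervals. Dotted lines mark the 3 counts that a count of 0 was taken to allow, as CPM of each library. The points of both libraries lie close together for 8 genes, and Mir802 stands at 45.2 CPM in replicate 1 and 2.56 CPM in replicate 2.

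Mir802 (ENSMUSG00000076457.1) lies on chromosome 16 at 93369720 to 93369816, plus strand, outside any other annotated gene. It had 226 counts in replicate 1 and 12 in replicate 2, all on its own strand. This is 45.2 CPM (95% exact Poisson interval 39.5 to 51.4) in replicate 1 and 2.56 CPM (1.32 to 4.48) in replicate 2. It was 17.6-fold higher in replicate 1, with an exact conditional binomial 95% interval of 9.89 to 34.6 that covers counting error only. Its mean of 23.9 CPM stands for neither library, since the SD of 30.1 CPM exceeds it.

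The place of Mir802 among the members therefore changed with the library. In replicate 1 it stood at 1.22-fold of Mir194-1 and 9.83-fold of Mir217. In replicate 2 it was at 0.667-fold of Mir217, with overlapping intervals, and Mir194-1 was 12.8-fold higher. Per length, Mir802 was at 0.844-fold of Mir194-1 in replicate 1, so the order of those genes there depends on the scale. The level of Mir194-1 also leaves out reads that match both Mir194 loci. By counted reads the other 8 genes kept 1 order in both libraries: Mir192, Mir194-2, Mir215, Mir122, Mir194-1, Mir217, Mir216b and Mir216a. Among these neighbours the ranges of the libraries did not overlap. The counting intervals did overlap for Mir216b and Mir216a in both libraries, and for Mir217 and Mir216b in replicate 2.

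**Figure D2:**
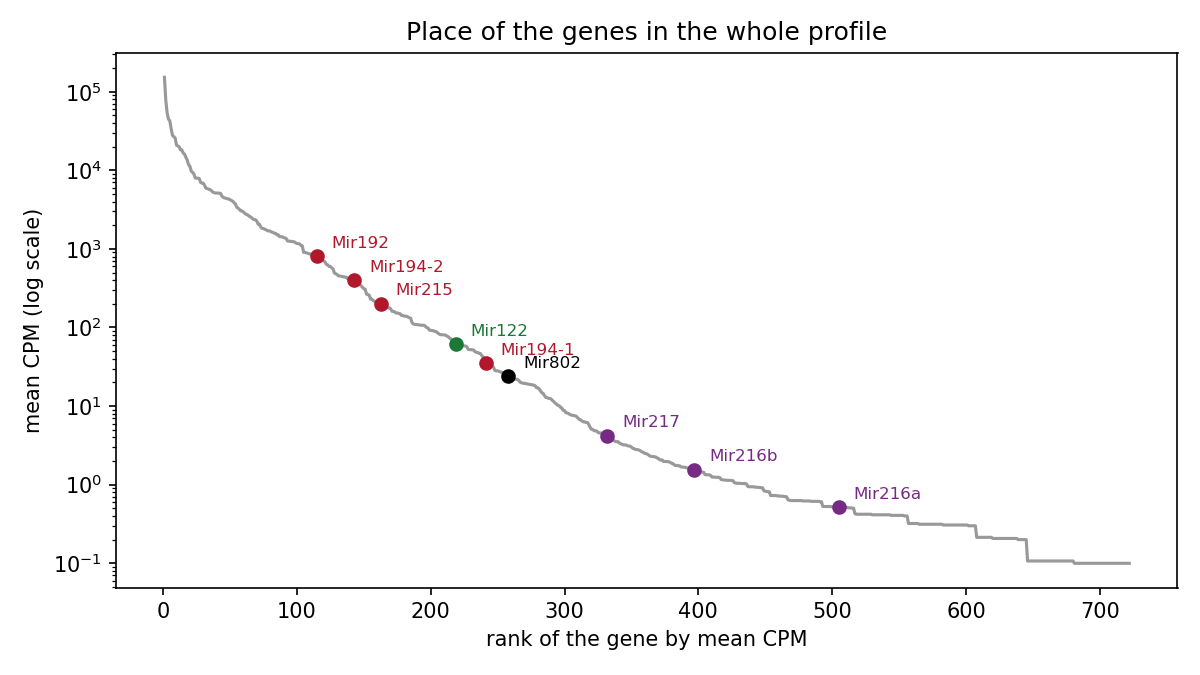
Mean CPM (log scale) of the genes with at least 1 count against their rank in the whole profile (grey line), with the intestinal genes in red, Mir122 in green, Mir802 in black and the pancreatic genes in purple. The members run from Mir192 at rank 115 to Mir216a at rank 505.

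The members were then set beside lists of miRNAs known from other cells of the stomach, each summed within a library. The Mir200 family of epithelial cells totalled 41439 CPM in replicate 1 and 41482 CPM in replicate 2. The intestinal total was 26.6-fold lower in replicate 1 and 31.7-fold lower in replicate 2. This is a log2 ratio of -4.86 ± 0.18 (SD, n = 2), which is larger than the spread between replicates. Reads of miR-194-5p that match both loci are not in the intestinal total, so its level may be understated. Mir205 and Mir203 of squamous epithelium, which lines the mouse forestomach, exceeded the intestinal total 10.7-fold and 12.7-fold. Mir375 (5552 CPM in replicate 1 and 4678 CPM in replicate 2) and the Mir7 genes, known from endocrine cells, exceeded it together 3.89-fold and 4.05-fold. The summed level of Mir31 and Mir148a, miRNAs also known from endoderm organs, was close to it, at 1708 CPM in replicate 1 and 1740 CPM in replicate 2. Mir143 and Mir145a of smooth muscle totalled 155329 ± 12469 CPM. The miRNAs known from smooth muscle, epithelium and squamous epithelium were thus all counted. Which cells or adjoining tissues they came from was not tested.

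Hepatic and pancreatic markers stood near the bottom of these lists. Striated muscle totalled 111 and 96.2 CPM over 4 genes and erythroid cells 151 and 218 CPM over 3, both above the single gene Mir122. Of these genes Mir208b (95.1 and 86.3 CPM) and Mir451a (122 and 194 CPM) alone lay above Mir122 in both libraries. Mir206, Mir144 and Mir486 lay below it. In the striated muscle list Mir208b had 476 and 404 counts and Mir206 had 79 and 46. Mir133a-1 and Mir133a-2 had 0 in both libraries, and their precursors share a stretch of 31 nt, so reads that match both would not be counted for them. The embryonic liver makes red blood cells at this age, so the erythroid genes are given beside Mir122. The erythroid total had a log2 ratio, replicate 2 over replicate 1, of 0.53 (95% interval 0.39 to 0.67). Its members did not move together, with Mir451a at 0.67 (612 and 910 counts) and Mir144 at -0.42 (126 and 88 counts). Mir486 was at 0.51, from 18 and 24 counts only. The log2 ratio of Mir122 was 0.21 (-0.02 to 0.45). Whether blood or adjoining liver contributed to the level of Mir122 was not tested.

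**Figure D3:**
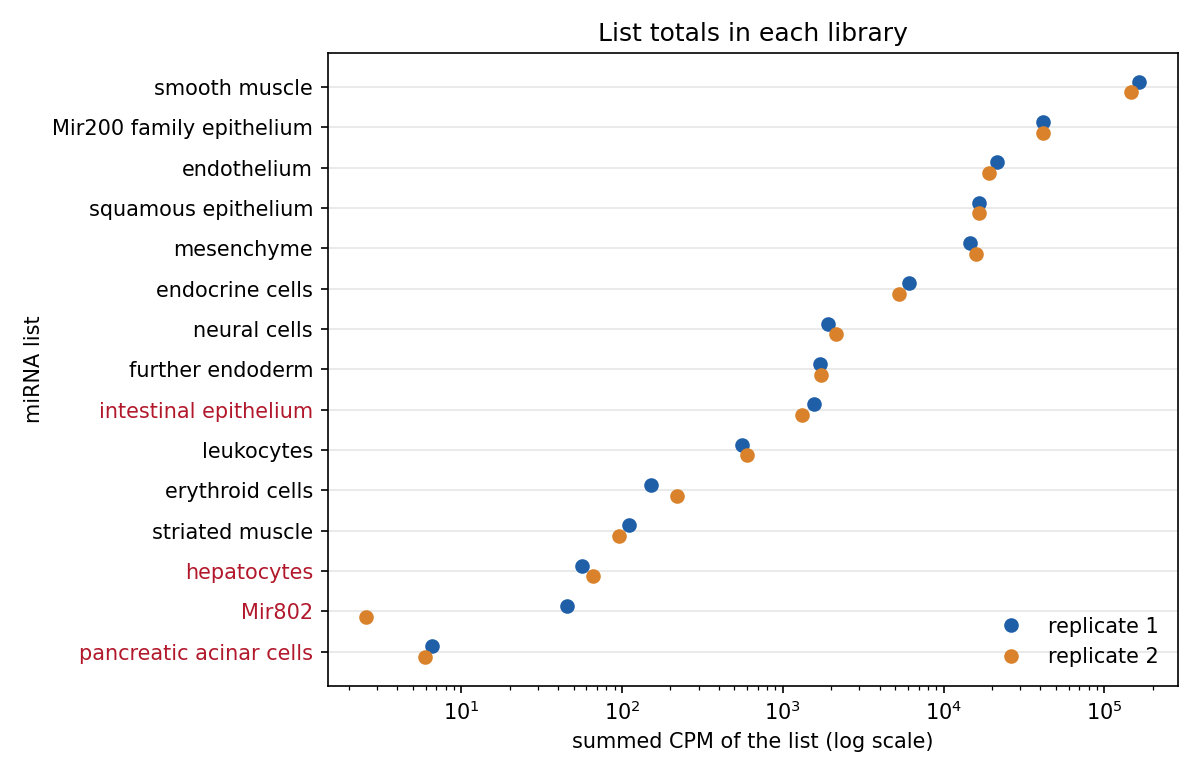
Summed CPM (log scale) of each miRNA list in replicate 1 (blue) and replicate 2 (orange), with the lists of the 9 genes in red. The intestinal genes lie at 1560.4 and 1308.6 CPM, below the Mir200 family and above Mir122, and Mir802 is the list whose libraries lie farthest apart.

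Differences between the libraries were measured as log2 ratios of replicate 2 over replicate 1 for the 7 detected members. The fold used was 2, and Mir802 was the member past it, with a log2 ratio of -4.14 (95% interval -5.11 to -3.31). Over all 361 detected genes 1.11% lay past this fold, so 1 of 7 members is set against 4 of 361 genes. All 4 were lower in replicate 2 and under 100 CPM, where they made up 2.42% of 165 genes. Mir802, with 12 counts in replicate 2, had the largest absolute log2 ratio of the 361 genes. Next to it came Gm26117 at -2.34 (interval -3.48 to -1.35), from 54 and 10 counts. Among genes below the minimum of 10 counts, Mir669f had 5 and 176 counts. Its log2 ratio of 5.23 was larger and in the other direction. The share of all genes past the fold was taken at the minimum of 10 counts only. These ratios compare these libraries and no conditions.

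The other members moved by less than the fold used. The intestinal genes were all lower in replicate 2, with log2 ratios of -0.38 (95% interval -0.51 to -0.25) for Mir215 and -0.32 (-0.38 to -0.25) for Mir192, and of -0.17 (-0.49 to 0.15) for Mir194-1 and -0.07 (-0.16 to 0.02) for Mir194-2. These intervals cover counting error only. Those of Mir192 and Mir215 left out 0, and those of the Mir194 genes included it. TMM factors or DESeq2 size factors shift every log2 ratio by -0.053 or -0.090, so for Mir194-2 this depends on the scaling. The interval of Mir194-1 also held the log2 ratios of Mir192 and Mir215. Mir217 had a log2 ratio of -0.26 (-1.23 to 0.70), within counting error. In all, 6 of the 7 detected members were lower in replicate 2, against 42.9% of detected genes. The median log2 ratio was -0.26 over the 7 members and 0.04 over all detected genes. The log2 ratios of all detected genes had an SD of 0.38, and the middle 95% of them ran from -0.72 to 0.58. Mir215 ranked 63rd and Mir192 88th of the 361 detected genes by absolute log2 ratio, so both lay within that spread. The genes of each intestinal pair lie at most 195 nt apart, so the members are not independent of each other.

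Markers of intestine, liver and pancreas, the organs from which Mir802 is known, are given here beside it. Between replicate 1 and replicate 2 the intestinal total went from 1560.4 to 1308.6 CPM, Mir122 from 56.7 to 65.8 CPM and the pancreatic acinar total from 6.59 to 5.98 CPM. The log2 ratios of these totals were -0.25, 0.21 and -0.14, against -4.14 for Mir802. The endocrine total, with Mir375 of pancreatic islets and of stomach, had a log2 ratio of -0.20, and the Mir200 family one of 0.0015. Within the endocrine total Mir375 was at -0.25, Mir7-2 at -0.53, Mir7-1 at 0.35 and Mir7b at 0.29. The interval of the pancreatic acinar ratio ran from -0.92 to 0.63 and rests on 33 and 28 counts. The part of other organs or cells in the Mir802 difference was not tested.

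**Figure D4:**
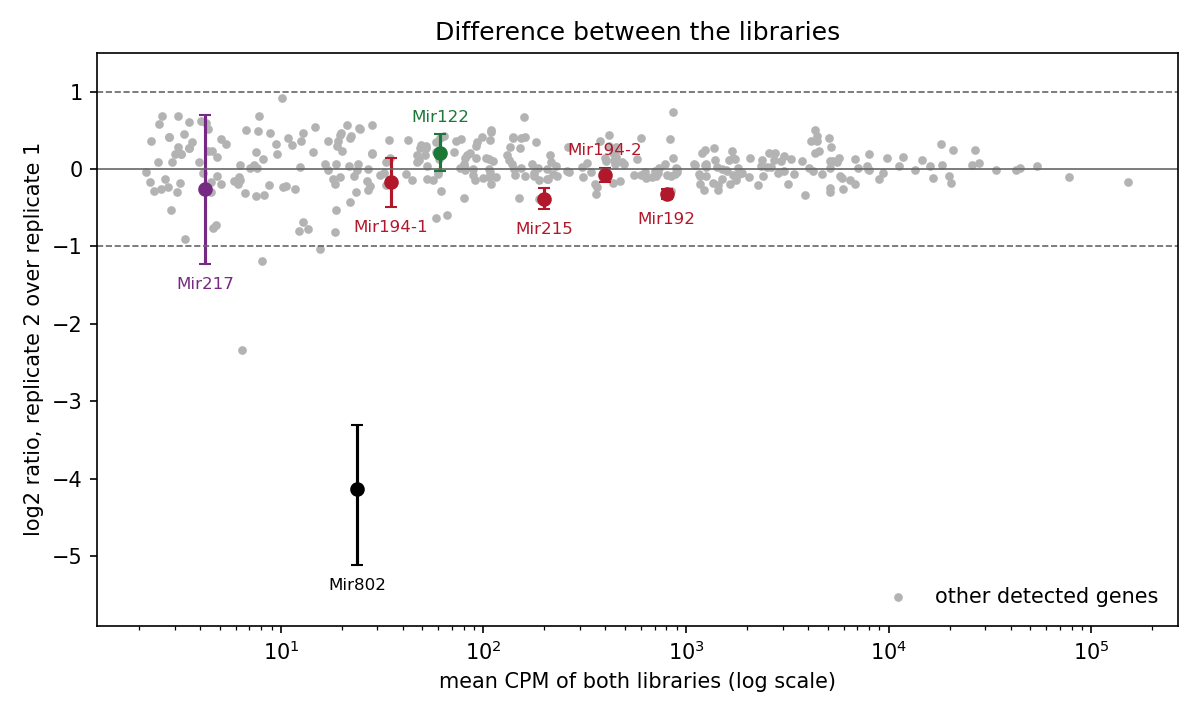
Log2 ratio of replicate 2 over replicate 1 against mean CPM (log scale) for the 361 detected genes, with the 7 detected members in colour and their exact conditional binomial 95% intervals; dashed lines mark a 2-fold difference. Mir802 lies at -4.14, below every other gene, and the other 6 members lie between -0.38 and 0.21.

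The detected genes nearest in level to 3 of the members were found by the distance of log2(CPM + 1) over the 2 libraries. For Mir192 these were Mir341, at 926 and 764 CPM, and Mir188, at 823 and 783 CPM. For Mir122 they were Mir383, at 57.9 and 63.2 CPM, and Mir30c-1, at 53.8 and 62.6 CPM, whose precursor shares 28 nt with Mir30c-2. No gene lay near Mir802: the closest, Mir450-2 and Gm26117, were at distances of 1.97 and 1.98, against 0.0638 for Mir383 from Mir122. The precursor of Mir450-2 shares 25 nt with Mir450-1, so reads that match both are not in its count. With 2 libraries such nearness describes levels and nothing else.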

How the data were processed

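The authors deposited 1 table of raw counts per gene for each library, made on mm10 with GENCODE M4 and derived from an alignment, per the file texts beside them. Their aligner was not given in the sources used here, nor was their counting program. The deposited counts come in 3 columns, of which the last 2 add up to the first for every gene, and the first (both strands) was used. Lines that name no gene (unmapped, 12.5% and 13.5% of all reads; several places; outside genes, 2.50% and 2.32%) were left out of totals.

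Symbols and positions came from GENCODE M21 on the same assembly for 1894 of 1973 genes. CPM, log2 ratios, exact conditional binomial and Poisson 95% intervals were computed in Python 3.11.15 with scipy 1.17.1. The ratio step was tested on simulated Poisson counts, which hold counting error only and not other differences between these libraries. A gene with 10 or more counts in both libraries was called detected. With 1 group there is no contrast, so no p-value is given. The precision is that of counting and of 2 libraries. The alternatives used edgeR 4.0.16 (TMM factors) and DESeq2 1.42.0 (size factors), the own-strand column, other totals, other count minimums, precursor length, summed copies and each library alone. Genes named are the 9 members, the marker lists by their totals, Mir31 and Mir148a, and the 2 detected genes nearest in level to Mir192, Mir122 and Mir802. Others were chosen after their values were seen. Members and lists were chosen with earlier results of these data known.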

Additional observations from a re-analysis of the deposited data

How the results depend on the processing

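With 1 group, results are shares of 2 libraries, and the denominator set the levels. With all reads of the tables as denominator the intestinal total was 817 CPM, Mir122 34.9 and the pancreatic acinar total 3.58, and with the gene total without the 5 most abundant genes they were 2287, 97.4 and 10.02. With the own-strand column, TMM factors or DESeq2 size factors these 3 levels moved by less than 1 SD. In either library alone they ran from 1308.6 to 1560.4, from 56.7 to 65.8 and from 5.98 to 6.59 CPM. The log2 ratio of the intestinal over the Mir200 family total was -5.38 without Mir194-1 and Mir194-2, which share sequence. With them it ran from -4.99 to -4.73 by library. Leaving these genes out lowers the ratio, whereas the uncounted reads of miR-194-5p would raise it. Mir802 was the 1 member past 2-fold in each of the 8 alternatives, with a log2 ratio from -4.23 to -4.14 over the 5 that rescale or use 1 strand. In those 5 no member's log2 ratio changed sign. With lower count minimums 9 members were counted. No share over all genes was taken at those minimums, so 1 of 9 has no background beside it. No paired analysis was possible because there is 1 group, and the 2-fold count needs both libraries, so it was not run with 1 left out. Depth limits Mir216a and Mir216b, at 8 counts or fewer.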
